A study of Homo sapiens with 12 samples.

Results

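This account follows 41 genes of the SREBP (sterol regulatory element-binding protein) pathway through JQ1 treatment of the MDA-MB-231 and the HCC70 line, both established human triple-negative breast cancer cell lines. The genes were taken by symbol from a list of pathway members and not by a cut on their measured values. The list was, however, chosen with earlier results of these data known. They fall into a fatty acid arm of 17 genes, a sterol arm of 19 and a group of 5 SREBP regulators. Of the 41 listed genes, 35 were measured among 14884 genes tested: 15 of the fatty acid arm, 15 of the sterol arm and all 5 regulators. ME1, GPAM, FDFT1, LSS, CYP51A1 and SC5D were not analysed here, because no transcript cluster was paired with their symbols in the annotation used. There were 4 groups of 3 arrays each: MDA-MB-231 with vehicle, MDA-MB-231 with JQ1, HCC70 with vehicle and HCC70 with JQ1. JQ1, which blocks the bromodomains by which BET proteins bind acetylated chromatin, was given at 500 nM for 72 hours, and the vehicle was DMSO at 0.1%. The labels name no genetic change made to either line. Whether the replicates of a group were independent cultures is not stated in the labels, and the spread behind each p-value may therefore be technical.

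SREBP transcription factors are made as precursors held in the endoplasmic reticulum membrane by SCAP, the sterol-sensing escort, and by the INSIG proteins that retain SCAP there when sterols are plentiful. When sterols fall, SCAP carries the precursor to the Golgi, where proteases free the active factor, which then enters the nucleus and switches on lipid synthesis genes together with NF-Y and Sp1. SREBF1 products act mainly on fatty acid genes and the SREBF2 product mainly on sterol genes, and INSIG1 is itself a target of the pathway. Proliferating tumour cells use both arms to build membranes.

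The promoters of 5 members are printed because these genes moved in different ways under JQ1. INSIG1 moved in opposite directions in the lines, SCD and STARD4 fell in both, and SREBF2 and MSMO1 fell in MDA-MB-231. Of the elements named below, SREBF2, INSIG1 and SCD hold the core of a sterol regulatory element. MSMO1 and STARD4 hold NF-Y and GC boxes only. Each printed promoter is the stretch of 250 bases before the annotated start in RefSeq (GRCh38.p14), written 5′ to 3′ on the strand of the gene. SREBF2 lies at chr22:41832855-41833104 on the plus strand, within the antisense noncoding gene SREBF2-AS1. INSIG1 lies at chr7:155297628-155297877 on the plus strand, within the divergent noncoding gene INSIG1-DT. SCD lies at chr10:100346983-100347232 and MSMO1 at chr4:165327419-165327668, both on the plus strand and outside other annotated genes. STARD4 lies at chr5:111512536-111512785 on the minus strand, within the antisense noncoding gene STARD4-AS1. Capitals mark matches, on either strand, to the core of a sterol regulatory element (CACNCCAC), an E-box (CACGTG), the NF-Y box (CCAAT) and the GC box (GGGCGG) bound by Sp1, and neighbouring matches can overlap.
SREBF2: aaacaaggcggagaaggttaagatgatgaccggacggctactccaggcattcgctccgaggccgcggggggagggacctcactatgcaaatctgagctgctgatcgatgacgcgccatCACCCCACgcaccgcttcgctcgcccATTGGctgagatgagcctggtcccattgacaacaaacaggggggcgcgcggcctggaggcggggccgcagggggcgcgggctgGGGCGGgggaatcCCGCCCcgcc
INSIG1: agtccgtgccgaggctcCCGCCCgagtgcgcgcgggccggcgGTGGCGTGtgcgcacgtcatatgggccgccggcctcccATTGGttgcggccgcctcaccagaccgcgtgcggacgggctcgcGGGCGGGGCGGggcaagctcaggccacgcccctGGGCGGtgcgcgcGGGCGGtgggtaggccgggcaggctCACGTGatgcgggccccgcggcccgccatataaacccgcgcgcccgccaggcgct
SCD: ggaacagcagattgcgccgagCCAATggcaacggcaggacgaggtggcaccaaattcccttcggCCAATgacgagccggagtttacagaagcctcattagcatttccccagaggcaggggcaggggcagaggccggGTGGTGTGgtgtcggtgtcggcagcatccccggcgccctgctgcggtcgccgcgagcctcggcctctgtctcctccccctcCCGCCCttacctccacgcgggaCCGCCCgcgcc
MSMO1: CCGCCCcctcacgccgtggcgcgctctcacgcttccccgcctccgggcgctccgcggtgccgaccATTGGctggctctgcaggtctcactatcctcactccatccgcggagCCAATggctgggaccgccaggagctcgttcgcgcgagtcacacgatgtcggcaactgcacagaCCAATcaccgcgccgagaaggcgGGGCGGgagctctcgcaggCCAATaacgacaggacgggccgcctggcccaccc
STARD4: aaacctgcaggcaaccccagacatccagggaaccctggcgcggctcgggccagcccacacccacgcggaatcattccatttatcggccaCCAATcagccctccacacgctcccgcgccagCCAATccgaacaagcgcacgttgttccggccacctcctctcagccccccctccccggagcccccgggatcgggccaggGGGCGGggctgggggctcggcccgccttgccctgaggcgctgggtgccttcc

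A promoter entry was matched by symbol for 32 of the 35 measured members (44 windows), and FASN, ACAT2 and SQLE had none. The core of the sterol regulatory element stood in 6 of the 32 (INSIG1, SREBF2, ACACA, MID1IP1, SCD and IDI1), which is 18.75%, against 6.56% of the 10749 tested genes with an entry. In SREBF2 it lay 132 to 125 bases before the start, in SCD 114 to 107 and in INSIG1 208 to 201. NF-Y boxes stood in 22 of 32 (68.75% against 39.8%), among them 12 of 13 sterol genes and 8 of 14 fatty acid genes. GC boxes stood in 30 of 32 (93.75% against 63.7%), and E-boxes in 3 of 32 (9.38% against 9.88%). Among the promoters of members called lower under JQ1 in MDA-MB-231, 12 of 19 held an NF-Y box and 4 of 19 the core, and among those called in neither direction there, 8 of 11 and 2 of 11. These matches describe letters in a window, with no test, and genes with more than 1 annotated start had more bases searched.

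Values are deposited log2 signals, and differences are given as log2 ± the standard error (SE) of the limma coefficient, with 3 arrays per group and p adjusted by Benjamini-Hochberg over all 14884 genes; a gene was called at an adjusted p under 0.05. Array medians lay between 6.16 and 6.26, and arrays of 1 group correlated at r = 0.989 to 0.995 across genes. Scaling bore on the balance of calls over all genes: called genes that were lower made up 61.2% in MDA-MB-231 and 57.7% in HCC70 as deposited, and 48.9% and 43.9% after each array was centred on its median. Of 5 measured readouts of BET inhibition, BRD2 and HEXIM1 rose in both lines (BRD2 by 0.86 and 1.22), MYC fell in both (-0.41 and -0.92), FOSL1 fell in MDA-MB-231 (-1.47) and was not called in HCC70, and BRD3 was called in neither. Of 8 epithelial markers, 6 were higher in HCC70 with vehicle (ESRP1 by 6.52), KRT18 was lower (-0.28) and KRT8 was not called, and 4 of 5 mesenchymal markers were lower there (AXL at -6.86), where 23.8% of all genes were higher and 23.2% lower. Of 6 adipocyte, endothelial and fibroblast markers, limma called 0 under JQ1 in either line (1 and 0 at an unadjusted p under 0.05). Beside these markers and the BET readouts stand 27.8% of all genes called under JQ1 in MDA-MB-231 and 21.7% in HCC70. The summed signal of the 6 markers lay between 7.09 and 7.45 on the log2 scale in all groups. ESR1 and PGR, the hormone receptors by whose absence these tumours are classed, lay between percentiles 9.54 and 29.4 of all genes in the 4 groups.

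The first comparison set JQ1 against vehicle in MDA-MB-231. Genes of both arms and of the regulators were lower: 8 of 15 in the fatty acid arm, 9 of 15 in the sterol arm and 4 of 5 regulators fell, and 1 gene in each arm, FADS3 and TM7SF2, rose. That made 23 of 35 members called, 2 higher and 21 lower, where 27.8% of all genes tested were called, 10.8% higher and 17.0% lower. The median change was -0.40 in the fatty acid arm, -0.35 in the sterol arm and -0.39 among the regulators, beside 0.02 over all genes. Array by array, the fatty acid arm's median shift from the vehicle mean was -0.30, -0.39 and -0.39 in the 3 JQ1 arrays and the sterol arm's was -0.37, -0.31 and -0.34. The falls reached further in the fatty acid arm, whose lower quartile of changes was -0.82 and lowest change -1.55, against -0.44 and -0.96 in the sterol arm, and the difference between the arms was not tested. In bulk RNA, fewer cells that express a gene and less of its RNA per cell cannot be told apart. Proliferation markers moved alongside: all 12 fell, by a median of 2.13, from a median level of 9.06 to 9.22 in the vehicle arrays to one of 7.08 to 7.09 in the JQ1 arrays, and their part in the result was not tested.

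**Figure D1:**
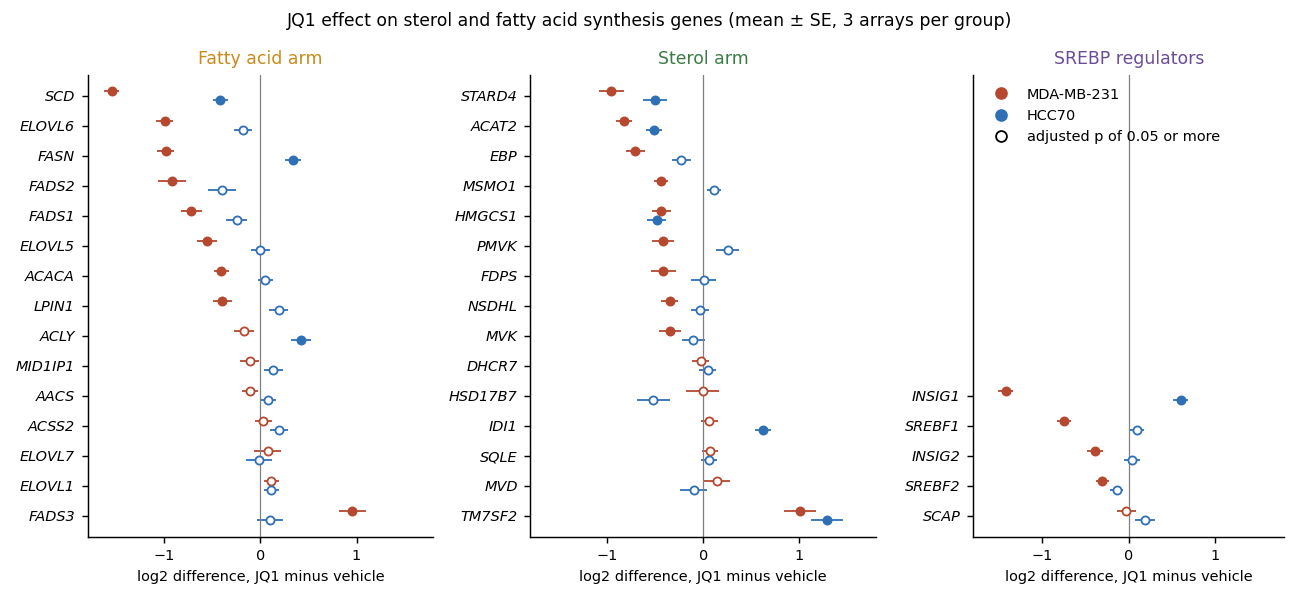
JQ1 effect on each measured gene of the fatty acid arm, the sterol arm and the regulators, as log2 difference of JQ1 minus vehicle on the horizontal axis, in MDA-MB-231 and in HCC70. Points are limma coefficients from 3 arrays per group and bars their SE, filled for an adjusted p under 0.05 and open otherwise. SCD and INSIG1 have the lowest points in MDA-MB-231, at -1.55 and -1.42, and TM7SF2 has the highest in both lines.

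Among the regulators, INSIG1, which retains the SREBP escort in the endoplasmic reticulum, changed most. Its log2 signal was 10.13, 10.05 and 9.95 in the vehicle arrays and 8.51, 8.66 and 8.68 in the JQ1 arrays, a gap far wider than the spread within either group. It fell by 1.42 ± 0.086, or 2.68-fold (adjusted p = 1.0e-07). SREBF1, which encodes the SREBP-1 factors, stood at 8.29, 8.35 and 8.22 with vehicle and at 7.57, 7.52 and 7.51 with JQ1. Every JQ1 array lay below every vehicle array, and the change was -0.75 ± 0.081 (1.68-fold, adjusted p = 1.7e-05). SREBF2, which encodes SREBP-2 and holds the sterol element core in the sequence printed above, went from 8.86, 8.97 and 8.81 to 8.61, 8.57 and 8.54. The groups did not overlap, and its fall was smaller (-0.31 ± 0.075, adjusted p = 0.0075). INSIG2, the second retention protein, read 9.18, 9.15 and 9.08 with vehicle and 8.87, 8.77 and 8.62 with JQ1 and fell as well (-0.39 ± 0.092, adjusted p = 0.0068). SCAP, the escort itself, was the regulator not called: its arrays read 8.56, 8.43 and 8.16 against 8.53, 8.27 and 8.27 and overlapped, with a difference of -0.027 (95% interval -0.27 to 0.22) whose sign turned under other scalings.

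In the fatty acid arm the falls ran through the steps from chain building to desaturation. SCD, the stearoyl-CoA desaturase that places the first double bond, read 11.81, 11.85 and 11.86 with vehicle and 10.22, 10.28 and 10.38 with JQ1. This was the largest fall of any member in this line, -1.55 ± 0.079 or 2.93-fold (adjusted p = 2.7e-08), and a dimmer transcript cluster of the gene gave -1.52. FASN, the fatty acid synthase, stood at 9.41, 9.49 and 9.32 and then at 8.49, 8.38 and 8.37. All JQ1 arrays were lower, and the change was -0.99 ± 0.087 (1.98-fold, adjusted p = 2.6e-06). ELOVL6, which lengthens saturated chains to the substrate of SCD, went from 9.35, 9.22 and 9.09 to 8.30, 8.27 and 8.10 and fell by as much (-0.996 ± 0.089, adjusted p = 3.2e-06).

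The FADS genes FADS1, FADS2 and FADS3, neighbours on chromosome 11 in RefSeq, moved in opposite directions. FADS2, the desaturase that opens polyunsaturated chain synthesis, read 7.76, 7.81 and 7.58 with vehicle and 6.45, 6.84 and 7.10 with JQ1. Its JQ1 arrays spread more than most, and all of them lay below the vehicle arrays (-0.92 ± 0.15, adjusted p = 0.00038). FADS1, the next desaturase of that route, read 8.63, 8.27 and 8.35 and then 7.63, 7.71 and 7.75, again with no overlap (-0.72 ± 0.11, adjusted p = 0.00027). FADS3, a relative reported to act on sphingoid bases, was the gene of the arm that rose: 7.80, 7.82 and 7.48 with vehicle against 8.66, 8.92 and 8.39 with JQ1. Its lowest JQ1 array exceeded its highest vehicle array, and the rise was 0.96 ± 0.14, or 1.94-fold (adjusted p = 0.00017).

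ACACA, ELOVL5 and LPIN1 fell less. ACACA, the acetyl-CoA carboxylase that makes malonyl-CoA, changed by -0.41 (adjusted p = 0.0015), ELOVL5, an elongase of polyunsaturated chains, by -0.56 (0.0012) and LPIN1, a phosphatidate phosphatase of glycerolipid synthesis, by -0.40 (0.0095). ACLY and ACSS2, which supply acetyl-CoA, were not called, and neither was AACS. ACLY, the ATP citrate lyase, read 10.31, 10.23 and 9.999 against 10.18, 9.90 and 9.97, overlapping groups with a difference of -0.17 (adjusted p = 0.27). ACSS2, an acetyl-CoA synthetase, and AACS, an acetoacetyl-CoA synthetase, gave 0.031 and -0.11. The elongase ELOVL1 and MID1IP1, which promotes assembly of acetyl-CoA carboxylase, gave 0.11 and -0.11 and were not called either, except ELOVL1 with quantile normalization (0.22, adjusted p = 0.043). The elongase ELOVL7 read 6.14, 6.01 and 6.05 with vehicle and 5.92, 6.45 and 6.05 with JQ1, overlapping groups with no call (0.075).

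In the sterol arm the falls ran from the first enzyme to late ones and to a sterol carrier. ACAT2, the cytosolic thiolase at the head of the pathway, read 8.45, 8.41 and 8.33 with vehicle and 7.65, 7.56 and 7.50 with JQ1. The arrays were well apart (-0.83 ± 0.083, 1.77-fold, adjusted p = 9.1e-06). HMGCS1, the next enzyme, which makes HMG-CoA, went from 7.44, 7.43 and 7.31 to 6.97, 7.06 and 6.85, again with no overlap (-0.44 ± 0.10, adjusted p = 0.0050). EBP, a sterol isomerase late in the pathway, read 8.39, 8.47 and 8.31 and then 7.69, 7.67 and 7.69, with JQ1 arrays that were nearly equal (-0.71 ± 0.10, adjusted p = 0.00015). MSMO1, the methylsterol oxidase whose promoter above holds 4 NF-Y boxes, read 10.12, 10.19 and 10.22 with vehicle and 9.77, 9.68 and 9.75 with JQ1. It fell without overlap (-0.44 ± 0.073, adjusted p = 0.00054). STARD4, a soluble carrier that moves cholesterol between membranes, had the largest fall of the arm: 8.58, 8.43 and 8.27 against 7.34, 7.66 and 7.41, or -0.96 ± 0.13 (1.94-fold, adjusted p = 9.4e-05).

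The other 4 sterol genes that fell were the mevalonate kinases MVK and PMVK, the farnesyl diphosphate synthase FDPS and the sterol dehydrogenase NSDHL, at -0.35, -0.42, -0.42 and -0.35 (adjusted p = 0.041, 0.018, 0.034 and 0.012). These 4 calls depended on the processing and on single arrays. With quantile normalization MVK and FDPS were not called (adjusted p = 0.10 and 0.12), nor with arrays centred on their medians (0.080 and 0.067), nor with all transcript clusters tested (0.090 and 0.074). With each line fitted alone MVK, FDPS and NSDHL were not called (0.072, 0.11 and 0.054). Without the 3 arrays numbered 3 that earlier work set apart, MVK, PMVK and FDPS were not called (0.066, 0.051 and 0.15). Those arrays were replicate 3 of MDA-MB-231 vehicle, of MDA-MB-231 JQ1 and of HCC70 JQ1, and the measure that set them apart is not given here. Single arrays also ended the calls: PMVK without replicate 1 of vehicle (adjusted p = 0.064) or JQ1 replicate 2 (0.072), NSDHL without vehicle replicate 2 (0.057) or JQ1 replicate 3 (0.053), and FDPS without vehicle replicate 2 (0.14), JQ1 replicate 1 (0.098) or JQ1 replicate 3 (0.13). MVK was lost with the replicate number as a block (adjusted p = 0.059) and without any 1 of 8 arrays, which were MDA-MB-231 vehicle replicate 1 (0.17), the 3 JQ1 arrays of that line, HCC70 vehicle replicate 2 and the 3 HCC70 JQ1 arrays (0.051 to 0.10). A second FDPS cluster of nearly equal brightness fell further, by 0.90 (adjusted p = 6.9e-06). TM7SF2, a sterol reductase that acts after lanosterol demethylation, rose. It read 6.20, 6.17 and 6.89 with vehicle, where replicate 3 stood above the others, and 7.29, 7.58 and 7.42 with JQ1, with no overlap (1.01 ± 0.16, 2.01-fold, adjusted p = 0.00045).

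The genes of the sterol arm that were not called in MDA-MB-231 included 2 around the middle of the pathway. SQLE, the squalene epoxidase, read 7.44, 7.32 and 7.29 against 7.48, 7.50 and 7.28, and IDI1, the isopentenyl diphosphate isomerase, 7.64, 7.65 and 7.61 against 7.59, 7.84 and 7.66. Both overlapped, with differences of 0.066 (95% interval -0.12 to 0.25) and 0.064 (-0.12 to 0.25). MVD, the mevalonate diphosphate decarboxylase, read 6.78, 7.24 and 6.76 and 7.16, 7.10 and 6.93 (0.14, adjusted p = 0.51). HSD17B7 and DHCR7, reductases of late sterol intermediates, gave -0.006 and -0.027.

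**Figure D2:**
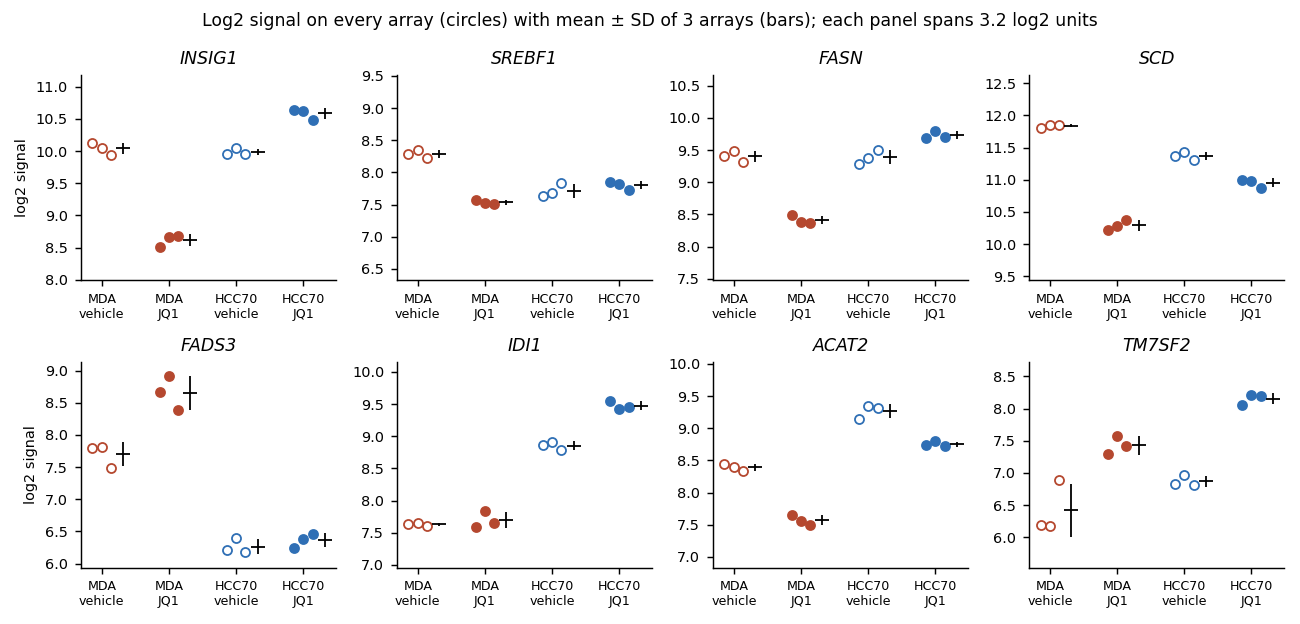
Deposited log2 signal of selected members in each of the 12 arrays, by group, with a circle for each array and a cross for the mean ± SD of 3 arrays. The panels span the same number of log2 units but start at different levels. INSIG1 and FASN are lower with JQ1 in MDA-MB-231 and higher with JQ1 in HCC70, SCD and ACAT2 are lower in both lines, and TM7SF2 is higher in both.

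The second comparison set JQ1 against vehicle in HCC70, where fewer members moved and in both directions. In all, 9 of 35 were called, 5 higher and 4 lower, where 21.7% of all genes were called (9.18% higher, 12.5% lower). In the fatty acid arm 2 of 15 rose and 1 fell, in the sterol arm 2 rose and 3 fell, and 1 of 5 regulators rose. The medians of the arms were 0.08 and -0.04 and that of the regulators 0.09, beside 0.01 over all genes. The 3 JQ1 arrays shifted by 0.06 to 0.07 in the fatty acid arm and by -0.05 to -0.003 in the sterol arm. Of the 12 proliferation markers 9 fell, with a median of -0.66, and their part in these values was not tested.

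INSIG1 was the regulator that rose in HCC70, from 9.96, 10.05 and 9.95 to 10.64, 10.63 and 10.49, opposite to its fall in MDA-MB-231. The groups were apart, and the rise was 0.60 ± 0.086 (1.52-fold, adjusted p = 0.00026). SREBF1 read 7.63, 7.67 and 7.83 against 7.85, 7.82 and 7.73 and overlapped (0.091, 95% interval -0.086 to 0.27). SREBF2 read 10.01, 10.06 and 10.09 against 9.93, 9.88 and 9.93, slightly lower in each JQ1 array but not called (-0.14, adjusted p = 0.24). SCAP read 7.90, 8.06 and 8.06 against 8.15, 8.22 and 8.22 (0.19, adjusted p = 0.31) and INSIG2 8.62, 8.56 and 8.64 against 8.72, 8.70 and 8.50 (0.035, adjusted p = 0.86).

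In the fatty acid arm FASN and ACLY, which act in sequence from citrate to palmitate with ACACA between them, rose in HCC70. FASN read 9.29, 9.38 and 9.51 with vehicle and 9.70, 9.80 and 9.70 with JQ1 (0.34 ± 0.087, 1.27-fold, adjusted p = 0.013). The groups did not overlap, but the call was lost without HCC70 vehicle replicate 1 (adjusted p = 0.061) or JQ1 replicate 2 (0.062). ACLY went from 9.99, 10.02 and 10.16 to 10.50, 10.46 and 10.48, with JQ1 arrays close together (0.43 ± 0.10, 1.34-fold, adjusted p = 0.0095). SCD fell here too, from 11.38, 11.43 and 11.31 to 10.996, 10.99 and 10.88 (-0.42 ± 0.079, 1.34-fold, adjusted p = 0.0019). Its dimmer cluster gave -0.18 and was not called (adjusted p = 0.35).

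The other fatty acid genes were not called in HCC70, with changes from -0.40 to 0.19. FADS2 came nearest, at 7.96, 8.05 and 7.70 with vehicle and 7.47, 7.51 and 7.54 with JQ1 (-0.40, adjusted p = 0.073). With all arrays kept, it was called with each line fitted alone (adjusted p = 0.028) and with only genes above the median level (0.033). It was also called once MDA-MB-231 JQ1 replicate 1 (adjusted p = 0.024), MDA-MB-231 JQ1 replicate 3 (0.036) or HCC70 vehicle replicate 3 (0.048) was left out. ELOVL6 read 7.50, 7.55 and 7.51 against 7.32, 7.39 and 7.31 (-0.18, adjusted p = 0.20). FADS1 read 7.95, 8.11 and 8.07 against 7.84, 7.93 and 7.63 (-0.25, adjusted p = 0.15). FADS3, which rose in the other line, read 6.21, 6.40 and 6.19 against 6.24, 6.39 and 6.46 (0.10, 95% interval -0.20 to 0.40). ELOVL7 read 4.64, 4.58 and 4.49 against 4.31, 4.62 and 4.74, levels below the lower quartile of all genes on these arrays.

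In the sterol arm of HCC70, TM7SF2 and IDI1 rose while ACAT2, HMGCS1 and STARD4 fell. TM7SF2 read 6.82, 6.97 and 6.81 with vehicle and 8.06, 8.22 and 8.19 with JQ1, the largest change of any member in this line (1.29 ± 0.16, 2.44-fold, adjusted p = 1.0e-04). IDI1 went from 8.86, 8.92 and 8.79 to 9.55, 9.42 and 9.46, without overlap (0.62 ± 0.086, 1.54-fold, adjusted p = 0.00020). ACAT2 read 9.14, 9.35 and 9.31 and then 8.74, 8.80 and 8.73 (-0.51 ± 0.083, adjusted p = 0.00066). Together with HMGCS1, at 8.02, 8.20 and 8.13 and then 7.74, 7.70 and 7.45 (-0.49 ± 0.10, adjusted p = 0.0032), this placed the enzymes of the first steps lower in both lines. STARD4 read 5.87, 5.77 and 5.83 with vehicle and 5.11, 5.56 and 5.29 with JQ1 (-0.50 ± 0.13, adjusted p = 0.012). Its call was lost without HCC70 JQ1 replicate 1 (adjusted p = 0.056).

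The 10 other sterol genes were not called in HCC70. SQLE read 10.35, 10.40 and 10.39 against 10.46, 10.41 and 10.43 and MSMO1 11.15, 11.17 and 11.12 against 11.27, 11.29 and 11.20, with differences of 0.055 and 0.11. MVD read 8.44, 8.82 and 8.64 against 8.60, 8.57 and 8.42 (-0.10), and the 5 genes MVK, PMVK, FDPS, NSDHL and DHCR7 lay between -0.10 and 0.25. All of these changes were small beside those of TM7SF2 and IDI1. EBP read 7.93, 8.26 and 8.30 against 7.91, 7.96 and 7.93 and was not called (-0.23, adjusted p = 0.13), except without HCC70 vehicle replicate 1, its lowest vehicle array (-0.35, adjusted p = 0.016). HSD17B7 lay at the threshold (-0.52 ± 0.17, adjusted p = 0.0503). It was called without HCC70 vehicle replicate 3 (adjusted p = 0.031), HCC70 JQ1 replicate 1 (0.041) or MDA-MB-231 JQ1 replicate 3 (0.043). With the replicate number as a block it had adjusted p = 0.003, although the numbers did not pair the HCC70 arrays.

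Set side by side, the lines shared 5 calls of the same direction: SCD, ACAT2, HMGCS1 and STARD4 were lower in both (6.89% of all genes tested were) and TM7SF2 was higher in both (4.09% were). FASN and INSIG1 were lower in MDA-MB-231 and higher in HCC70, a pair of calls that 0.598% of all genes had. A further 15 members were lower in MDA-MB-231 and not called in HCC70. FADS3 was higher in MDA-MB-231 and not called in HCC70. Whatever their call in HCC70, 17.0% of all genes were lower in MDA-MB-231 and 10.8% higher. Of the 15, FADS1, FADS2, MVK, FDPS (by the cluster kept), NSDHL and SREBF2 had no called difference of the effects. ACLY and IDI1 were higher in HCC70 and not called in MDA-MB-231. Whatever their call in MDA-MB-231, 9.18% of all genes were higher in HCC70. The other 10 were called in neither line. The share of all genes called in neither, or in only 1 line, is not given here. Taken line by line, 27.8% of all genes were called in MDA-MB-231 and 21.7% in HCC70. The arrays of the treatments did not overlap for 23 members in MDA-MB-231 and 21 in HCC70, where this held for 38.0% and 37.4% of all genes.

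**Figure D3:**
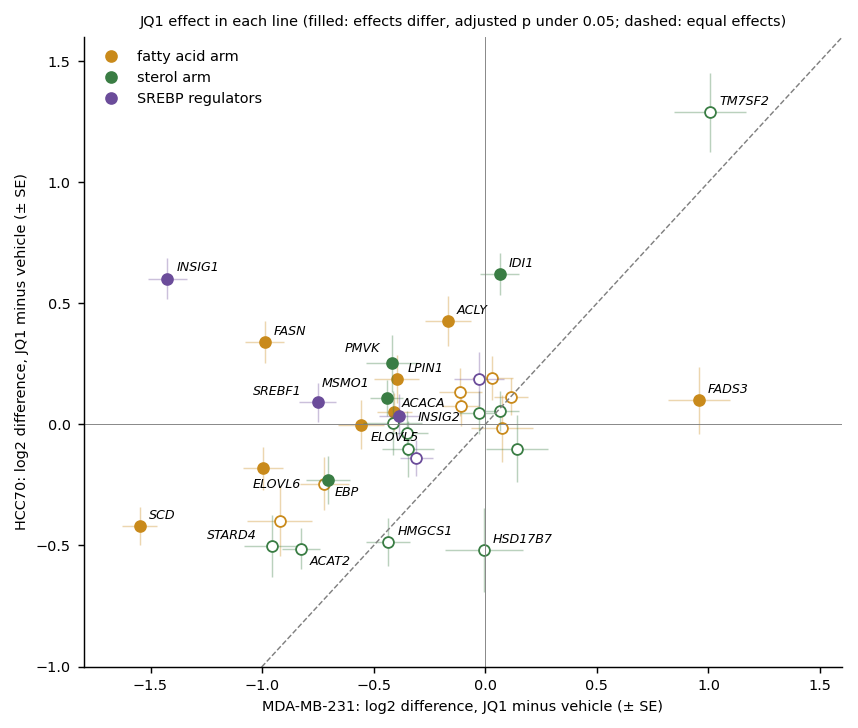
JQ1 effect in HCC70 (vertical axis) against that in MDA-MB-231 (horizontal axis), both as log2 difference of JQ1 minus vehicle, for the 35 measured members, coloured by arm, with bars for the SE. The dashed diagonal marks equal effects, and filled circles are members whose effects differed at an adjusted p under 0.05. INSIG1 and FASN lie at the upper left, TM7SF2 at the upper right, and most other members lie left of the vertical zero line and near the horizontal one.

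The difference of the effects was tested directly, as the JQ1 effect in HCC70 minus that in MDA-MB-231, from the same 12 arrays. It was called for 15 of 35 members, 14 positive and 1 negative, where 15.0% of all genes were called (9.02% positive, 5.95% negative). The median difference was 0.42 over the 35 members. Proliferation markers moved the same way and by more: all 12 were called positive, with a median of 1.48, and their part in the members' differences was not tested. The fatty acid arm held 7 of the positive calls, the sterol arm 4 and the regulators 3. INSIG1 differed most, by 2.03 ± 0.12, a 4.07-fold gap between the effects (adjusted p = 8.0e-07), followed by FASN at 1.33 ± 0.12 (2.51-fold, adjusted p = 1.4e-05). SCD came next at 1.13 ± 0.11 (adjusted p = 2.4e-05), although it fell in both lines. FADS3 was the 1 negative call, -0.86 ± 0.19 (adjusted p = 0.0095).

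Of the factors themselves, SREBF1 responded differently (0.84 ± 0.12, adjusted p = 0.00031) and SREBF2 was not shown to (0.17, 95% interval -0.061 to 0.40). The remaining fatty acid genes with a called difference were ELOVL6, ACLY, LPIN1, ELOVL5 and ACACA, at 0.81, 0.59, 0.59, 0.56 and 0.46. In the sterol arm they were PMVK, IDI1, MSMO1 and EBP, at 0.67, 0.56, 0.55 and 0.48. INSIG2 completed the regulators at 0.42. With the replicate number as a block, EBP and INSIG2 lost the call (adjusted p = 0.0504 and 0.061) and HSD17B7 gained it (0.023). The INSIG2 call was also lost with quantile normalization (0.053), centred arrays (0.051) and all transcript clusters tested (0.12), which ended those of EBP (0.097) and ELOVL5 (0.060) too. Without the 3 arrays numbered 3, PMVK and EBP were not called (0.053 and 0.076). Leaving out any 1 of 9 arrays ended the INSIG2 call (adjusted p 0.078 to 0.11), the exceptions being MDA-MB-231 vehicle replicate 3, MDA-MB-231 JQ1 replicate 1 and HCC70 JQ1 replicate 3. It likewise ended the EBP call for any 1 of 9 (0.060 to 0.090), the exceptions being MDA-MB-231 vehicle replicate 3 and HCC70 vehicle replicates 2 and 3. The ELOVL5 call was lost without MDA-MB-231 vehicle replicate 1 or 2, HCC70 vehicle replicate 2 or HCC70 JQ1 replicate 1 (0.050 to 0.056). FADS1 (0.48, adjusted p = 0.058) was called without MDA-MB-231 vehicle replicate 2 (0.044) or HCC70 JQ1 replicate 3 (0.031), and FADS2 (0.52, 0.12) without MDA-MB-231 JQ1 replicate 3 (0.032). FDPS (0.42, 0.17) was called without MDA-MB-231 JQ1 replicate 2, at 0.024, and with the mean of its clusters (0.59, adjusted p = 0.0045). Its second cluster, of nearly equal brightness, gave a called difference of 0.76 (adjusted p = 0.0011), so the missing FDPS call rests on the cluster kept.

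Of the 5 members called the same way in both lines, SCD was the 1 with a called difference. TM7SF2 gave 0.28 (95% interval -0.22 to 0.78), HMGCS1 -0.051 (-0.36 to 0.25), ACAT2 0.31 (0.056 to 0.57) and STARD4 0.45 (0.064 to 0.84). Their adjusted p-values were 0.50, 0.86, 0.10 and 0.12, which does not show that the effects were equal.

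The last comparison set the vehicle-treated lines against each other, to give the level from which each started. In the sterol arm 12 of 15 genes were higher in HCC70 and 1 was lower, while in the fatty acid arm 2 were higher and 7 lower. The regulators split into 1 higher and 3 lower. That made 26 of 35 members called where 47.0% of all genes were (23.8% higher in HCC70, 23.2% lower). The median difference was 0.87 in the sterol arm and -0.23 in the fatty acid arm, beside 0.03 over all genes. The vehicle arrays of the lines did not overlap for 27 of 35 members, which held for 55.2% of all genes.

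The factors differed in opposite directions. SREBF2, with the vehicle values given above, was 2.26-fold higher in HCC70 (1.17 ± 0.075, adjusted p = 3.4e-08) and SREBF1 was lower (-0.57 ± 0.081, adjusted p = 5.7e-05). INSIG1 started from nearly the same level in both lines (-0.056, 95% interval -0.24 to 0.13), as did FASN (-0.014, -0.20 to 0.17), the pair with opposite JQ1 effects, and neither was called between the lines. SCAP and INSIG2 were lower in HCC70, at -0.37 and -0.54. The SCAP call was lost without replicate 1 of MDA-MB-231 vehicle (adjusted p = 0.071) or HCC70 vehicle replicate 1 (0.063).

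SQLE set the lines apart most, with vehicle values of 7.44, 7.32 and 7.29 in MDA-MB-231 and 10.35, 10.40 and 10.39 in HCC70, or 8.14-fold (adjusted p = 1.9e-11). JQ1 gave no call for it in either line, except in MDA-MB-231 with quantile normalization (0.22, adjusted p = 0.031). MVD followed, at 6.78, 7.24 and 6.76 against 8.44, 8.82 and 8.64 (3.27-fold), and IDI1, at 7.64, 7.65 and 7.61 against 8.86, 8.92 and 8.79 (2.33-fold). HSD17B7, NSDHL, PMVK, MSMO1, ACAT2, DHCR7, HMGCS1, FDPS and TM7SF2 were higher by 1.16 to 0.45, the last of which was called only narrowly (adjusted p = 0.037). Its call was lost without any 1 of MDA-MB-231 vehicle replicates 1 and 2 and the 3 HCC70 vehicle arrays (adjusted p 0.063 to 0.16), with quantile normalization (0.067) and with all transcript clusters tested (0.072), and without MDA-MB-231 vehicle replicate 3 the difference was 0.68 (adjusted p = 0.00018). STARD4 ran the other way, at 8.58, 8.43 and 8.27 in MDA-MB-231 and 5.87, 5.77 and 5.83 in HCC70, 6.07-fold lower (adjusted p = 2.7e-09). MVK and EBP were not called (0.16 and -0.23). EBP was called without HCC70 vehicle replicate 3 (-0.30, adjusted p = 0.043) and with quantile normalization (-0.30, adjusted p = 0.016).

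In the fatty acid arm ELOVL6 was 3.25-fold lower in HCC70 with vehicle, at 7.50, 7.55 and 7.51 against 9.35, 9.22 and 9.09 (adjusted p = 5.5e-09). ELOVL7, at 4.64, 4.58 and 4.49 against 6.14, 6.01 and 6.05, lay below the lower quartile of all genes in HCC70, and its 2.82-fold difference rests on that dim level. FADS3 was 2.71-fold lower (6.21, 6.40 and 6.19 against 7.80, 7.82 and 7.48). Smaller differences of -0.47 to -0.37 were called for SCD, LPIN1, MID1IP1 and FADS1. The FADS1 call was lost without replicate 1 of either line's vehicle arrays (adjusted p = 0.061 and 0.052), and MID1IP1 had a dimmer cluster that was not called (0.19, adjusted p = 0.18). ELOVL1, an elongase of saturated very long chains, and AACS were the 2 that were higher (0.55 and 0.53). ELOVL5 was not called in the main fit (-0.23, adjusted p = 0.088). It was called as lower with quantile normalization (-0.32, adjusted p = 0.0068) and with only genes above the median level (0.043). Leaving out replicate 3 of MDA-MB-231 vehicle also gave a call (-0.33, adjusted p = 0.012).

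**Figure D4:**
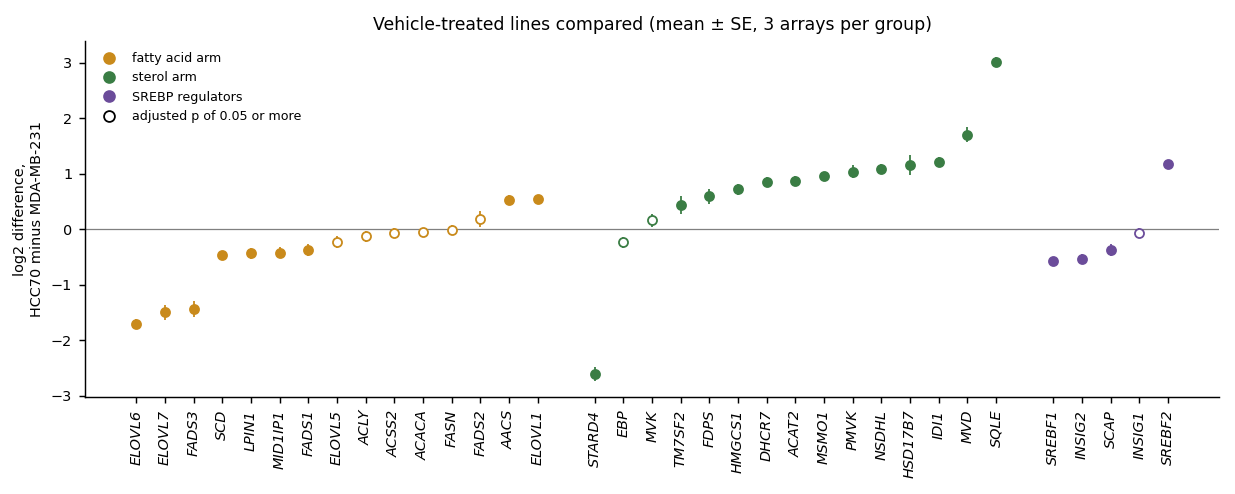
Difference between the vehicle-treated lines for each measured member, as log2 signal in HCC70 minus that in MDA-MB-231 on the vertical axis, with the genes along the horizontal axis by arm. Points are limma coefficients from 3 arrays per group, bars are their SE, and filled points have an adjusted p under 0.05. Most sterol genes lie above 0, led by SQLE at 3.03, STARD4 lies lowest at -2.60, and the fatty acid genes lie on both sides.

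Neighbouring genes of the pathway, from lists drawn up with earlier results of these data known, were measured in part. The counts below stand beside 10.8% of all genes called higher and 17.0% lower in MDA-MB-231, and 9.18% and 12.5% in HCC70, and no list was tested. Of 16 other sterol synthesis and uptake genes 6 were measured. In MDA-MB-231, 3 of them fell, among them VLDLR, a lipoprotein receptor (-1.17), and LBR, the lamin B receptor with sterol reductase activity (-1.11), and ERG28, a scaffold of sterol enzymes, rose by 0.23. In HCC70, 3 fell, among them VLDLR (-0.67) and LBR (-0.36), and SOAT1, which esterifies cholesterol, rose by 0.65. LBR catalyses the same reduction as TM7SF2 and moved opposite to it in both lines.

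Of 19 other fatty acid synthesis genes 12 were measured. ACACB, the second acetyl-CoA carboxylase, rose in MDA-MB-231 (0.78) and fell in HCC70 (-0.32; it was chosen for naming there after its values were seen), and PNPLA3, a lipid droplet acylhydrolase, fell in both (-1.18 and -0.47). SCD5, the second human stearoyl-CoA desaturase, fell in HCC70 (-0.72), 1 of 3 called there, all lower. Of 9 measured SREBP processing and degradation genes (of 16 listed), 3 fell in MDA-MB-231, led by RNF145 (-0.62), a ubiquitin ligase for SCAP, and ERLIN1 (-0.44), a membrane scaffold that binds SREBP complexes. In HCC70 RNF145 fell as well (-0.61) and FAF2, which helps extract INSIG1 for degradation, rose (0.34). MYLIP, the LXR target that degrades the LDL receptor, rose in both lines (0.58 and 1.09), the 1 called of 3 measured in its list of 10. Of 7 measured lipogenic transcription factors (of 14) 4 fell in MDA-MB-231, led by PPARG (-1.24) and USF1 (-0.69), and 3 in HCC70, led by CREBBP (-0.58) and SP1 (-0.46).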

How the data were processed

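Gene expression was measured in 12 samples, 3 in each of 4 groups, from 150 ng of RNA each on Human Gene 2.0 ST arrays. The deposited values are log2 signals of 53617 transcript clusters, and RMA, oligo and limma are named, without versions, in the submitters' processing notes. RMA takes background off and equalises arrays, so total shifts in RNA are not kept. Which genome build the annotation followed is not stated in those sources. Clusters with 1 gene symbol numbered 16098 and those with none 37519; for a gene with several the brightest mean was kept, which left 14884 genes. A model with 1 mean per group and 8 residual degrees of freedom was fitted by limma 3.58.1 under R 4.3.3 (lmFit, then eBayes, two-sided), with Benjamini-Hochberg adjustment over all genes and calls at an adjusted p under 0.05. No filter on dim genes was applied. The fit was tested on simulated data. The number of arrays limits the precision.

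All 41 members are accounted for. Values of every array are given for the regulators, the largest called changes of each arm and comparison and members called in opposite directions, and for up to 2 genes in each direction of a neighbouring list the change alone. The members, lists, comparisons and alternatives were chosen with earlier results of these data known. The replicate numbers in the labels were checked as pairs by correlating, across genes, how far vehicle and JQ1 arrays departed from their group means. Same-numbered arrays correlated at 0.155, 0.121 and 0.362 in MDA-MB-231, and different-numbered ones between -0.25 and 0.12. Vehicle replicate 2 there correlated alike with JQ1 replicates 1 and 2 (both 0.121), so pairing by number was clearest for replicate 3. In HCC70 same-numbered arrays correlated at -0.059, 0.015 and 0.070, and the numbers did not pair the arrays. The main fit took no pairing in either line, and the block was an alternative only. Alternatives tried were a block on the replicate number, separate fits of each line, robust moderation with a variance trend (statmod 1.5.0), the brighter genes, other handling of genes with several clusters, quantile normalization, median centring, a minimum log2 change of 0.5 and fits without single arrays or without 3 that earlier work set apart.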

Additional observations from a re-analysis of the deposited data

Results flagged for a closer look

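The JQ1 effect in HCC70 minus that in MDA-MB-231, tested by limma as an interaction, set 15 of the 35 measured members apart. Of all genes, 15.0% were called (9.02% positive, 5.95% negative). The members' values are repeated here on the log2 scale. The calls of INSIG2, EBP, ELOVL5 and PMVK were lost under some alternatives, as given above. Among the regulators, the difference was 2.03 for INSIG1, 0.84 for SREBF1 and 0.42 for INSIG2. In the fatty acid arm it was 1.33 for FASN, 1.13 for SCD, 0.81 for ELOVL6, 0.59 for ACLY, 0.59 for LPIN1, 0.56 for ELOVL5, 0.46 for ACACA and, in the other direction, -0.86 for FADS3. In the sterol arm it was 0.67 for PMVK, 0.56 for IDI1, 0.55 for MSMO1 and 0.48 for EBP.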

How the results depend on the processing

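Of the calls among members, 19 of 23 in MDA-MB-231 and 7 of 9 in HCC70 were kept under 21 alternatives that judged calls by the adjusted p alone, 11 of 15 differences of the effects under 20, and 22 of 26 between the vehicle-treated lines under 19, and 0 called members changed sign. The fit of brighter genes left out ELOVL7 as too dim. In that fit FADS2 and HSD17B7 became called in HCC70 (adjusted p = 0.033 and 0.022). So did the differences of FADS1 and ACAT2 (0.023 and 0.037), and ELOVL5 and EBP between the vehicle-treated lines (0.043 and 0.035). When changes also had to reach 0.5 on the log2 scale, the sterol arm in MDA-MB-231 had 4 called members in place of 10, the regulators 2 in place of 4, and the fatty acid arm in HCC70 0 in place of 3; by construction, this removes small changes. With single arrays left out, MDA-MB-231 had 9 called members of the fatty acid arm throughout, 7 to 10 of the sterol arm and 4 regulators, HCC70 had 2 to 4, 5 to 6 and 1, the difference of the effects 12 to 15, and the vehicle-treated lines 23 to 27. Without the 3 arrays numbered 3 that earlier work on these data set apart, the sterol arm in MDA-MB-231 had 7 called members and the fatty acid arm 9. With the replicate number as a block, the sterol arm had 9 called members in place of 10 in MDA-MB-231 and 6 in place of 5 in HCC70, the difference of the effects was called for 14 in place of 15, and 4210 genes in all were called in MDA-MB-231 in place of 4139; apart from MVK, EBP, INSIG2 and HSD17B7, named in the report, the block changed no other call. Uncalled changes became called with a variance trend and robust moderation for FADS2 and HSD17B7 in HCC70 (adjusted p = 0.032 and 0.021), the differences of FADS1, ACAT2 and NSDHL (0.022, 0.045 and 0.046), and ELOVL5 and EBP between the vehicle-treated lines (0.025 and 0.047). Sign changes were looked for among called changes and the JQ1 changes of members with values of every array. Those that turned sign were uncalled ones near 0, and the cause was not tested. Other uncalled changes near 0 are not covered. SCAP in MDA-MB-231 turned to 0.099 with quantile normalization, 0.038 with centred arrays, 0.061 without MDA-MB-231 vehicle replicate 1, and 0.017 and 0.016 without MDA-MB-231 JQ1 replicates 2 and 3. ELOVL7 in HCC70 turned to 0.053 with centred arrays, 0.018 without HCC70 vehicle replicate 1 and 0.11 without HCC70 JQ1 replicate 1. Without MDA-MB-231 JQ1 replicate 2, ELOVL7 there turned to -0.078 and IDI1 to -0.0088, and without HCC70 JQ1 replicate 1 INSIG2 in HCC70 turned to -0.005. With single arrays left out, these uncalled changes reached 0.18 for ELOVL7 and 0.12 for IDI1 (both without MDA-MB-231 JQ1 replicate 1) and -0.14 for SCAP (without MDA-MB-231 vehicle replicate 3) in MDA-MB-231, and -0.11 for ELOVL7 in HCC70 (without HCC70 JQ1 replicate 3). Signals below the lower quartile, such as those of ELOVL7 in HCC70, leave little room for a fall to be seen.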

Other observations

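Of 21 fatty acid oxidation genes 10 were measured, and in each line 2 rose and 2 fell, where 10.8% of all genes rose and 17.0% fell in MDA-MB-231, and 9.18% and 12.5% in HCC70. ETFDH, which passes electrons from fatty acid oxidation to ubiquinone, and ACAA1, a peroxisomal thiolase, rose in both lines, by 0.65 and 0.39 and by 0.51 and 0.33. ACAA2, the mitochondrial thiolase, fell in both (-0.51 and -0.37), HADH, a mitochondrial hydroxyacyl-CoA dehydrogenase, fell in MDA-MB-231 (-0.53) and PPARD, a fatty acid sensing nuclear receptor, fell in HCC70 (-0.55). Of 5 measured NADPH supply genes (of 11), 2 fell in each line and 0 rose by limma's adjusted p. MTHFD1L, a mitochondrial folate enzyme, fell in MDA-MB-231 (-1.58) and HCC70 (-0.57), as did NNT, the mitochondrial transhydrogenase (-1.55 and -0.88). Of 13 isoprenoid branch genes 3 were measured, and limma called 0 under JQ1 in either line (0 at an unadjusted p under 0.05).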
